A study of Mus musculus with 6 samples.

Results

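The genes described here are 9 chemokine genes, Ccl2, Ccl3, Ccl4, Ccl5, Ccl7, Cxcl1, Cxcl5, Cxcl10 and Cxcl12, out of 19937 genes that the array's annotation names by a single symbol. A feature of the array was taken for a chemokine when the annotation gave it exactly that gene's symbol, and each of the 9 genes had 1 such feature. The members were chosen by their measured values, with all 3 comparisons between the groups of these arrays already known, so their values and the counts of them that were called are given as a description and no p-value is printed for a single member. RNA was measured on 6 single-colour arrays of mouse embryonic stem cells (strain C57Bl/6). All cells, controls included, carried a stable chimeric receptor named GRgp-Y118F. In receptors of this kind an extracellular part that binds granulocyte colony-stimulating factor (GCSF) is fused with the cytoplasmic tail of gp130, the receptor chain through which leukaemia inhibitory factor (LIF) activates STAT3, and Y118F marks the loss of a tyrosine that links gp130 to the ERK pathway. There were 2 arrays labelled LIF/PD, from cells given LIF with 1 uM PD0325901, an inhibitor of the ERK-activating kinase MEK, 2 arrays labelled GCSF, and 2 untreated control arrays. The design text gives 6 h without serum and then 1 h of treatment for the treated cells. Whether the controls were also kept without serum, whether the line was a single clone, and whether replicates were separate cultures are not given in the sources used here. P-values therefore measure only the spread between these arrays, which may be technical.

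Chemokines are small secreted proteins that direct the migration of cells through G protein-coupled receptors. The CC and CXC families are named for the spacing of their first conserved cysteines. Many of the inflammatory members, Ccl2 among them, are switched on within hours by NF-kB, AP-1 and interferon signalling, and their mRNAs are short-lived because RNA-binding proteins of the ZFP36 family mark them for decay. Fibroblasts, endothelial cells and macrophages are the classical sources, and Cxcl12 is best known as a stromal chemokine that retains stem and progenitor cells in the bone marrow.

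The values are log2 intensities as deposited. A feature was tested when its mean over the 6 arrays reached 6.70, the 40th percentile of the features outside the array's control block, and 16912 features passed. It was called when its adjusted p was under 0.05 with limma (Benjamini-Hochberg, two-sided, over all tested features). The array labels were checked with genes that respond to the pathways. Socs3, the STAT3-induced feedback inhibitor, rose under both labels on its stronger feature, by 2.62 ± 0.07 in the arrays labelled LIF/PD and by 3.13 ± 0.07 in the arrays labelled GCSF (log2 difference from control ± SE, n = 2 arrays per group). The ERK feedback genes went against the labels. Dusp6 averaged 10.53 in the LIF/PD arrays, 8.94 in the GCSF arrays and 10.50 in the controls, and Spry4 averaged 10.05, 8.17 and 10.00 in the same order of groups. The fall of ERK target genes that a MEK inhibitor produces thus appeared under the label GCSF and not under the label LIF/PD. Whether the labels of the treated groups were exchanged was not tested and cannot be settled from these files. The groups were kept as labelled, so each value below belongs to the arrays that carry the label; were the labels exchanged, the fall of Ccl2, Ccl3 and Ccl7 would belong to the cells given LIF and PD0325901.

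Of the 9 chemokine genes 7 passed the filter. Ccl4 (mean 6.40) and Cxcl5 (mean 5.69) did not, and Cxcl10 (mean 6.83) was the passing gene nearest to the limit. Ccl2, Ccl7 and Ccl3 were lower in the GCSF arrays than in the control arrays and lower than in the LIF/PD arrays, while Ccl5, Cxcl1, Cxcl10 and Cxcl12 were not called in any of the 3 comparisons. In the comparison of GCSF with control, 3 of the 7 tested chemokine features were called lower and 0 higher. Over all features tested, 0.367% were called lower and 0.804% higher. Both GCSF arrays lay below both control arrays for 4 of the 7 and above them for 1, against 18.2% and 23.7% of all tested features. The chemokines were listed with this comparison known, so the counts describe the list and support nothing beyond it. The median difference was -0.05 over the 7 chemokine features and 0.01 over all tested features.

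**Figure D1:**
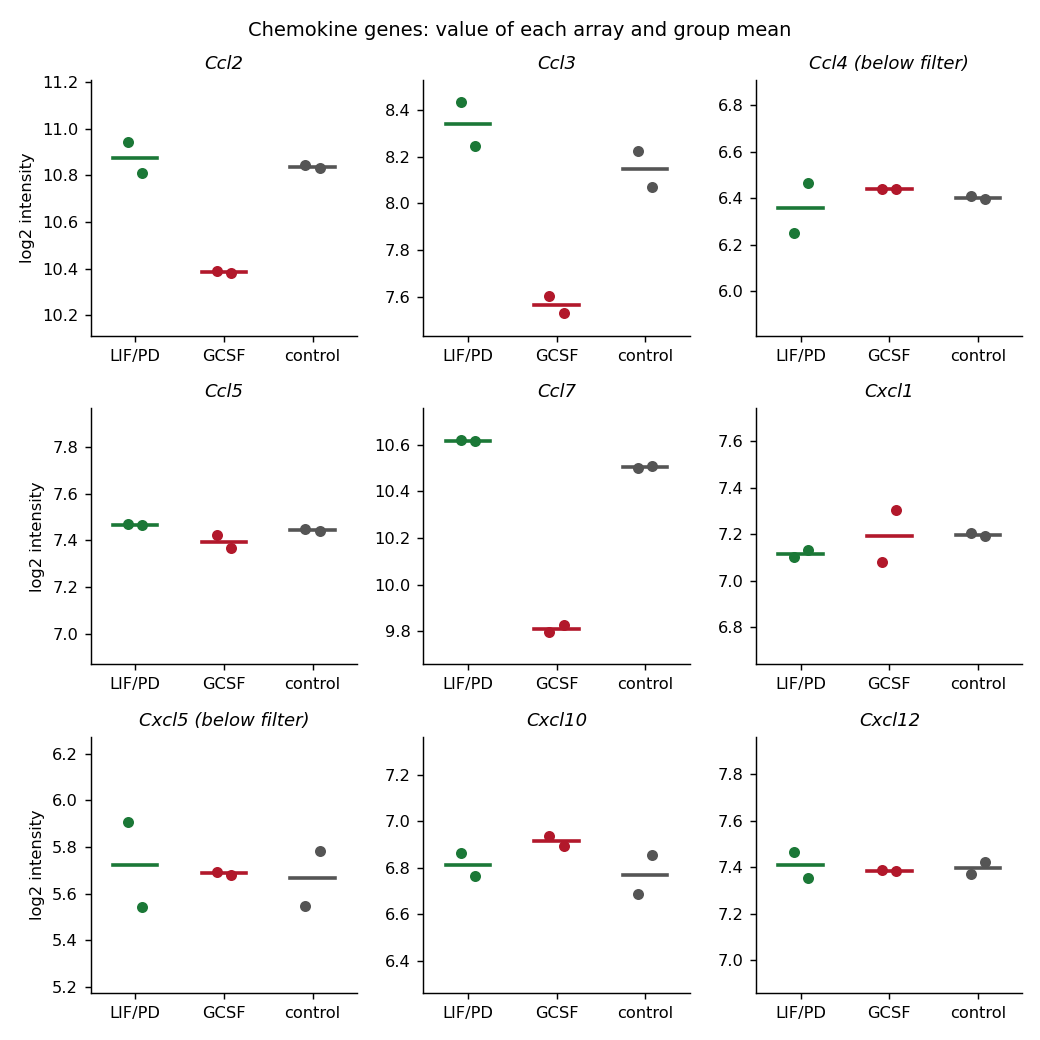
Log2 intensity of the 9 chemokine genes on each array (points) with the group mean (line), in the order LIF/PD, GCSF, control. Every panel spans the same number of log2 units around its own centre, and levels of different genes are not comparable between panels. The GCSF arrays lie below the other 4 arrays for Ccl2, Ccl3 and Ccl7, with Ccl7 at 9.80 and 9.83 against 10.50 and 10.51 in the controls.

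Ccl7 encodes a monocyte attractant that acts through several CC receptors, among them Ccr2. Its log2 intensity was 10.62 and 10.61 in the LIF/PD arrays, 9.80 and 9.83 in the GCSF arrays, and 10.50 and 10.51 in the control arrays. The GCSF arrays lay below all others, and arrays of a group differed far less than the groups did. Against control, Ccl7 fell by 0.69 ± 0.04 log2 in the GCSF arrays, which is 1.62-fold lower (95% interval 1.53 to 1.71-fold). Among the 16912 tested features 15 had a more negative difference. The LIF/PD arrays lay 0.81 ± 0.04 above the GCSF arrays, and only 12 tested features had a larger difference in that comparison. They also lay above both control arrays, by 0.11 ± 0.04, and this difference was not called.

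Ccl2, the main chemoattractant of monocytes and the chief ligand of Ccr2, is the immediate neighbour of Ccl7 among the protein-coding genes of chromosome 11. It measured 10.94 and 10.81 in the LIF/PD arrays, 10.39 and 10.38 in the GCSF arrays, and 10.84 and 10.83 in the control arrays. The GCSF arrays were again the lowest, while the LIF/PD arrays lay on either side of the controls. Ccl2 fell by 0.45 ± 0.05 against control in the GCSF arrays, 1.37-fold lower (95% interval 1.27 to 1.47-fold), and 38 tested features had a more negative difference. The LIF/PD arrays were 0.49 ± 0.05 higher than the GCSF arrays and differed from control by 0.04 ± 0.05.

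Ccl3, an inflammatory chemokine that binds Ccr1, is made mainly by macrophages and other leukocytes. Its values were 8.43 and 8.24 in the LIF/PD arrays, 7.60 and 7.53 in the GCSF arrays, and 8.22 and 8.07 in the control arrays. The lowest values were those of the GCSF arrays, and the highest those of the LIF/PD arrays, which did not overlap the controls. Ccl3 fell by 0.58 ± 0.08 against control in the GCSF arrays, 1.50-fold lower (95% interval 1.31 to 1.71-fold), with 24 tested features more negative. In the LIF/PD arrays it was 0.77 ± 0.08 higher than in the GCSF arrays and differed by 0.19 ± 0.08 from control, which was not called. The spread between arrays of a group was wider than for Ccl2 and Ccl7. Without control replicate 1, GCSF replicate 1 or GCSF replicate 2 Ccl3 was no longer called against control, although its difference stayed between -0.66 and -0.50, and without LIF/PD replicate 1 it was not called between LIF/PD and GCSF (0.68). The differences of Ccl2 and Ccl7 from control in the arrays labelled GCSF, and between LIF/PD and GCSF, were called under all 14 alternatives.

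The 2 other CC chemokines showed no such fall. Ccl5, which recruits T cells and monocytes through receptors that include Ccr1 and Ccr3, measured 7.47 and 7.46 in the LIF/PD arrays, 7.42 and 7.37 in the GCSF arrays, and 7.45 and 7.44 in the controls. The groups did not overlap, but the difference between GCSF and control was -0.05 ± 0.06 (95% interval -0.20 to 0.10), against -0.69 ± 0.04 for Ccl7. Ccl4, an inflammatory chemokine whose gene lies next to Ccl3, lay below the filter, with 6.25 and 6.47 in the LIF/PD arrays, 6.44 and 6.44 in the GCSF arrays, and 6.41 and 6.40 in the controls. Its difference between GCSF and control, taken from the fit without a filter, was 0.04 ± 0.09.

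The CXC chemokines were not called either. The means of the tested ones also lay close to the filter, 0.69 above it for Cxcl12, 0.46 for Cxcl1 and 0.13 for Cxcl10. Cxcl1, a neutrophil attractant that acts through Cxcr2, measured 7.10 and 7.13 in the LIF/PD arrays, 7.08 and 7.30 in the GCSF arrays, and 7.20 and 7.19 in the controls. The GCSF arrays lay on either side of the controls, and their difference of -0.01 ± 0.09 became 0.11 without GCSF replicate 1 and -0.12 without GCSF replicate 2. Cxcl10, an interferon-induced Cxcr3 ligand, measured 6.86 and 6.76 in the LIF/PD arrays, 6.94 and 6.89 in the GCSF arrays, and 6.69 and 6.85 in the controls. It was the tested chemokine that lay higher in both GCSF arrays than in both controls, by 0.14 ± 0.08 (95% interval -0.05 to 0.34), and the interval includes 0. Cxcl12 measured 7.47 and 7.35 in the LIF/PD arrays, 7.39 and 7.38 in the GCSF arrays, and 7.37 and 7.42 in the controls. All 3 groups overlapped, and the difference between GCSF and control was -0.01 ± 0.07 (95% interval -0.17 to 0.15). Cxcl5, another Cxcr2 ligand, lay below the filter, between 5.54 and 5.91 on all 6 arrays, with overlapping groups.

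**Figure D2:**
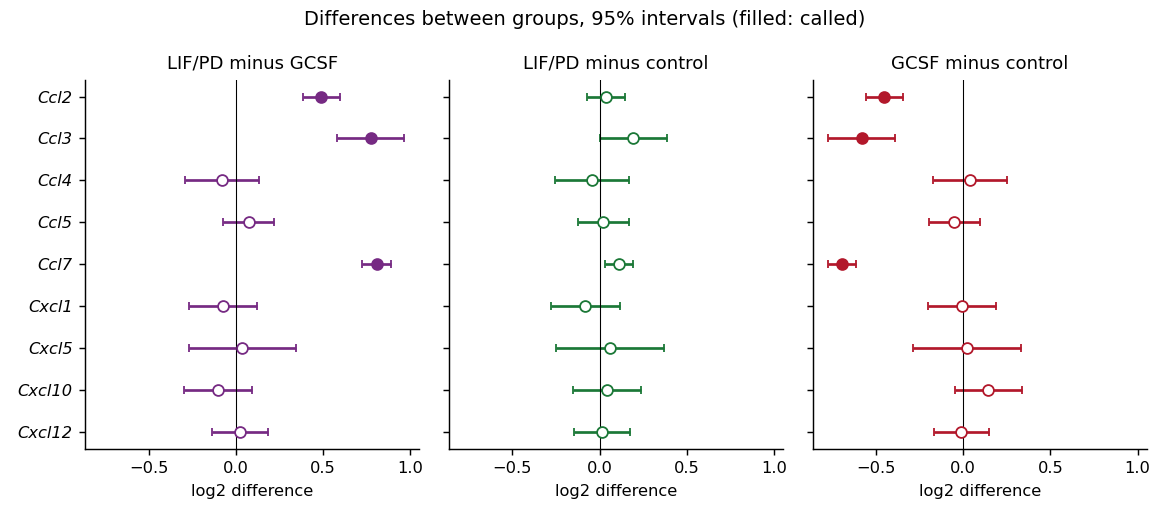
Log2 differences between groups for the 9 chemokine genes, with 95% intervals from limma (filled points were called at an adjusted p under 0.05; Ccl4 and Cxcl5 come from the fit without a filter). Ccl2, Ccl3 and Ccl7 are called lower for GCSF minus control and higher for LIF/PD minus GCSF, and no chemokine is called for LIF/PD minus control.

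Against control, the LIF/PD arrays changed little in these genes. With limma 0 of the 7 tested chemokine features were called, and at an unadjusted p under 0.05 there were 2 higher and 0 lower, against 4.70% and 1.89% of all tested features. Nothing is read from these counts, since the comparison was known when the genes were chosen. Over all tested features 0.0591% were called higher and 0.00591% lower, 0.065% in either direction. Both LIF/PD arrays lay above both controls for 3 of the 7 (Ccl3, Ccl5 and Ccl7) and below them for 1 (Cxcl1), against 24% and 14.4% of all tested features. The differences ran from -0.08 for Cxcl1 to 0.19 for Ccl3. The direct comparison of LIF/PD with GCSF called 3 of the 7 features higher and 0 lower, against 0.402% and 0.443% of all tested features, 0.846% in either direction. Both LIF/PD arrays lay above both GCSF arrays for 4 of the 7 and below them for 1, against 22.4% and 19.1%. It uses the same GCSF arrays as the comparison of GCSF with control, so the differences are not separate evidence of low values in those arrays. The values of the LIF/PD and control arrays for Ccl2, Ccl3 and Ccl7 come from 4 different arrays, all of them above both GCSF arrays.

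On chromosome 11 the CC genes stand in the order Ccl2, Ccl7, Ccl11, Ccl12, Ccl8 and Ccl1, and, further along, Ccl5, Ccl9, Ccl6, Ccl3 and Ccl4, in the RefSeq annotation of GRCm38.p6. The genes that fell did not include the other measured neighbours. Ccl11, an eosinophil attractant next to Ccl7, differed by -0.10 ± 0.07 between GCSF and control. Ccl6, next to Ccl3, differed by -0.03 ± 0.10, and Ccl9 by -0.01 ± 0.07. Ccl11 and Ccl6 averaged 7.33 and 7.05 in the controls, nearer to the filter than Ccl9 (8.21) and Ccl3 (8.15). Ccl12, Ccl8, Ccl1 and Ccl4 lay below the filter.

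**Figure D3:**
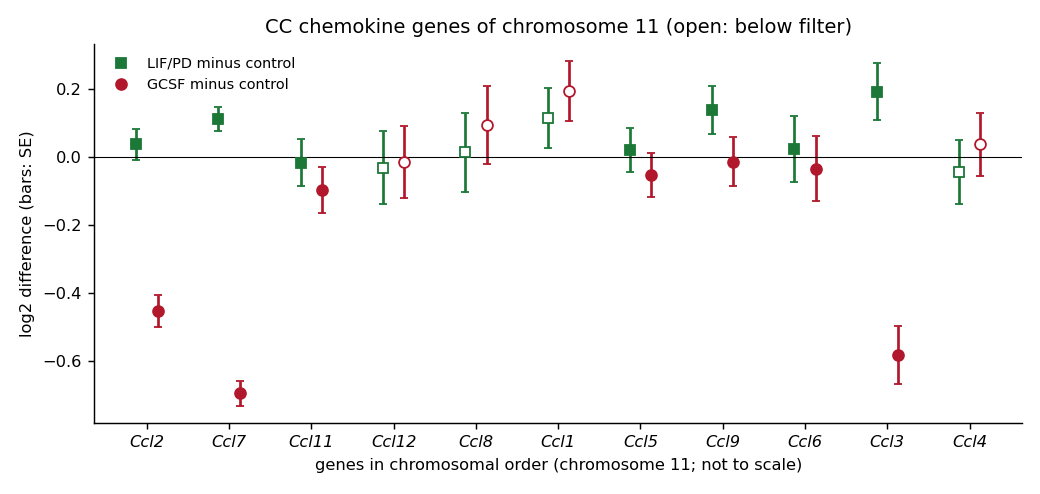
Log2 differences from control, with SE bars, for 11 CC chemokine genes of chromosome 11 in chromosomal order (distances not to scale; open symbols lay below the filter and come from the fit without it). In the arrays labelled GCSF, Ccl2, Ccl7 and Ccl3 lie at -0.45, -0.69 and -0.58, while their measured neighbours lie between -0.10 and 0.19.

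Promoter sequence from RefSeq (GRCm38.p6, 250 bases before to 50 after the start of the gene, in the direction of transcription) was matched for 4 of the 9 genes: Ccl3, Cxcl1, Cxcl10 and Cxcl12. Those of Ccl3, which fell in the arrays labelled GCSF, and of Cxcl1 and Cxcl10, which were not called, are shown. They were picked because they differ in the motifs of the factors known to induce chemokine genes. The difference between them therefore follows from the choice, and any link to the fall was not tested. Ccl2 and Ccl7, which also fell, had no matched window, so for the genes that fell Ccl3 alone is shown. Capitals mark every match, on either strand, to 4 motifs: GGG and CC with any 5 bases between them (NF-kB), TTCNNNGAA (STAT, N being any base), TGANTCA (AP-1), and TTTC repeated after any 2 bases (IRF).
Ccl3, chr11:83649329-83649628, minus strand: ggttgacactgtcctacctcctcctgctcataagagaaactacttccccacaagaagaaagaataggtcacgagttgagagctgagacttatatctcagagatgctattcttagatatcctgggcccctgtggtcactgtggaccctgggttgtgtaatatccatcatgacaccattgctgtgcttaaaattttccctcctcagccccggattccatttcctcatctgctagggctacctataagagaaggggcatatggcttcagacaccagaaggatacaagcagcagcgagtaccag
Cxcl1, chr5:90890995-90891294, plus strand: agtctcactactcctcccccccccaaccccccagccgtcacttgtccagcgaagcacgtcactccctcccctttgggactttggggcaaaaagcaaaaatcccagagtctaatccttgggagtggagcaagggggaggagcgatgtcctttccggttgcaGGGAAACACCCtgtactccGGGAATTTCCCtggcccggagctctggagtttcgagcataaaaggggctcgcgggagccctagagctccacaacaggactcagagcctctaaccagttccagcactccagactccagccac
Cxcl10, chr5:92348840-92349139, minus strand: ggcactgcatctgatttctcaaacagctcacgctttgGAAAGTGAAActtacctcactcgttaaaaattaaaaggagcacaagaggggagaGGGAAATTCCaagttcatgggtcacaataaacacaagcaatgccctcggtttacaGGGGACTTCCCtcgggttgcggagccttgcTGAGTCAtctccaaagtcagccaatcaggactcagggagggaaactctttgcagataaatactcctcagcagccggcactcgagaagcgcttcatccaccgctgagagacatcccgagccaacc

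The Ccl3 window held no match to any of the 4 motifs. The Cxcl1 window held NF-kB matches in 2 stretches, GGGAAACACCC and GGGAATTTCCC, which begin 90 and 71 bases before the start; each stretch contains 2 overlapping matches shifted by a single base, 1 on each strand. The Cxcl10 window held NF-kB matches in GGGAAATTCC and GGGGACTTCCC, 159 and 104 bases before the start, an IRF match on the other strand, GAAAGTGAAA, at 213 bases and an AP-1 match, TGAGTCA, at 74 bases. In Cxcl12 a single NF-kB match, GGCCCGCCCC, began 36 bases before the start, and none of the 4 windows held a STAT match. Of 32851 RefSeq promoter windows of this length, 50.8% held the NF-kB motif as written, 8.30% the STAT motif, 7.81% the AP-1 motif and 3.44% the IRF motif, so the NF-kB letters alone are common. A match is a stretch of letters and not a measured binding site, and sites outside the window were not searched.

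The rest of the family was taken from a list of 30 other chemokines. Of these, 27 matched the annotation with 31 features, of which 14 features of 11 genes were tested. With limma 0 were called in each of the 3 comparisons, and at an unadjusted p under 0.05 there was 1 lower for GCSF against control, 0 for LIF/PD against control and 1 higher for LIF/PD against GCSF. Over all tested features, 12.1%, 6.59% and 11.8% passed that unadjusted limit in either direction, in the same order of comparisons. By direction, 5.07% were lower for GCSF against control and 6.96% higher for LIF/PD against GCSF. Nothing is read from counts of 0 or 1 among 14 features. The median difference between GCSF and control was -0.06, with a range from -0.36 to 0.09. The lowest belonged to a feature named Ccl19, a ligand of Ccr7 (-0.36 ± 0.14, adjusted p = 0.377), but Ccl19 has 4 features on this array, and the other 2 tested ones differed by 0.05 and -0.13. Ppbp, a platelet chemokine, differed by 0.17 ± 0.07 between LIF/PD and GCSF (adjusted p = 0.406). Cxcl9, like Cxcl10 an interferon-induced Cxcr3 ligand, differed from control by -0.19 ± 0.09 in the LIF/PD arrays (adjusted p = 0.752) and by -0.10 ± 0.09 in the GCSF arrays.

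Receptor transcripts gave few values above the filter. Of 23 listed chemokine receptors 22 matched the annotation and 5 were tested, of which 0 were called with limma in any comparison; at an unadjusted p under 0.05 there was 1 higher for GCSF against control (7.04% of all tested features) and 0 in each of the other comparisons. Among the receptors of the 9 chemokines, Ccr1, Ccr2, Ccr3, Cxcr2, Cxcr3, Ackr1 and Ackr3 lay below the filter, with group means between 4.45 (Ccr2 in the LIF/PD arrays) and 6.56 (Ackr3 in the GCSF arrays). Cxcr4, the signalling receptor of Cxcl12, passed it, with 7.13 and 7.06 in the LIF/PD arrays, 7.08 and 7.10 in the GCSF arrays, and 7.18 and 7.17 in the controls. Both treated groups lay slightly below control, by -0.08 ± 0.07 (adjusted p = 0.869) for LIF/PD and -0.09 ± 0.07 (adjusted p = 0.668) for GCSF. Ccr4, a receptor of helper T cells, differed by 0.22 ± 0.08 between GCSF and control (adjusted p = 0.337), and the fractalkine receptor gene Cx3cr1 by -0.17 ± 0.09 (adjusted p = 0.495).

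Genes of the pathways that induce chemokines, or that degrade their mRNAs, were listed as 36 genes, of which 32 matched and 27, with 28 features, were tested. Earlier results for several of them on these arrays were known when the list was made. In the GCSF arrays 6 features were called higher and 1 lower than control, or 25% of the 28 against 1.17% of all tested features. In the LIF/PD arrays 1 was called higher and 0 lower than control, against 0.0591% and 0.00591% of all tested features. Between LIF/PD and GCSF 1 was called higher and 3 lower, against 0.402% and 0.443% of all tested features. Of the NF-kB subunit genes 4 were tested and 0 called with limma in any comparison. At an unadjusted p under 0.05 there was 1, Rel, higher for GCSF against control, as were 7.04% of all tested features. Nfkb1 was not analysed here. Rela differed from control by 0.04 ± 0.05, Relb by 0.15 ± 0.07, Nfkb2 by 0.02 ± 0.06 and Rel by 0.30 ± 0.07 (adjusted p = 0.136) in the GCSF arrays. Bcl3, a nuclear IkB protein that binds p50 and p52 dimers, rose by 0.55 ± 0.05 in the LIF/PD arrays and 1.35 ± 0.05 in the GCSF arrays. Icam1, an adhesion molecule gene and NF-kB target, rose by 0.96 ± 0.07 in the GCSF arrays. It measured 8.89 and 8.72 in the LIF/PD arrays, 9.31 and 9.21 in the GCSF arrays, and 8.25 and 8.35 in the controls. Both LIF/PD arrays thus also lay above both controls, a difference that was not called. Tnfaip3, the NF-kB-induced inhibitor also known as A20, measured 6.90 and 7.00 in the LIF/PD arrays, 6.64 and 6.63 in the GCSF arrays, and 6.97 and 7.00 in the controls. Its GCSF arrays were the lowest, but the difference of -0.35 ± 0.07 from control did not pass (adjusted p = 0.0792).

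Of the mRNA decay factors, members of the ZFP36 family differed in direction. Zfp36, which encodes tristetraprolin, rose in the GCSF arrays by 0.39 ± 0.06 (adjusted p = 0.0289) and differed by 0.43 ± 0.06 in the LIF/PD arrays (adjusted p = 0.110). Zfp36l2 measured 10.50 and 10.48 in the LIF/PD arrays, 10.05 and 10.06 in the GCSF arrays, and 10.50 and 10.41 in the controls. It fell by 0.40 ± 0.04 against control in the arrays labelled GCSF (adjusted p = 0.00220) and was 0.43 ± 0.04 higher in LIF/PD than in GCSF arrays (adjusted p = 0.00287). Zfp36l1 did not pass, at 0.22 ± 0.05 for LIF/PD against control (adjusted p = 0.443) and 0.14 ± 0.05 for GCSF against control. The other genes called higher in the arrays labelled GCSF were Atf3 (0.71 ± 0.07), a stress-induced transcription factor of the AP-1 type, and the interferon pathway genes Irf9 (0.52 ± 0.05) and Irf1 (0.43 ± 0.05, with 0.12 on its other feature). These called features also averaged above control in the LIF/PD arrays, where they were not called. Their means there were 7.92 against 7.75 for Atf3, 8.49 against 8.27 for Irf9 and 8.81 against 8.50 for Irf1. The other Irf1 feature averaged 6.81 against 6.87. Myd88, the Toll-like receptor adaptor, differed by 0.25 ± 0.06 (adjusted p = 0.150). In the LIF/PD arrays the single call against control, Bcl3, was lost when any of the 4 compared arrays was left out. The count of 4 between LIF/PD and GCSF was 1 without LIF/PD replicate 1, and 2 without LIF/PD replicate 2 or without either GCSF array.

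**Figure D4:**
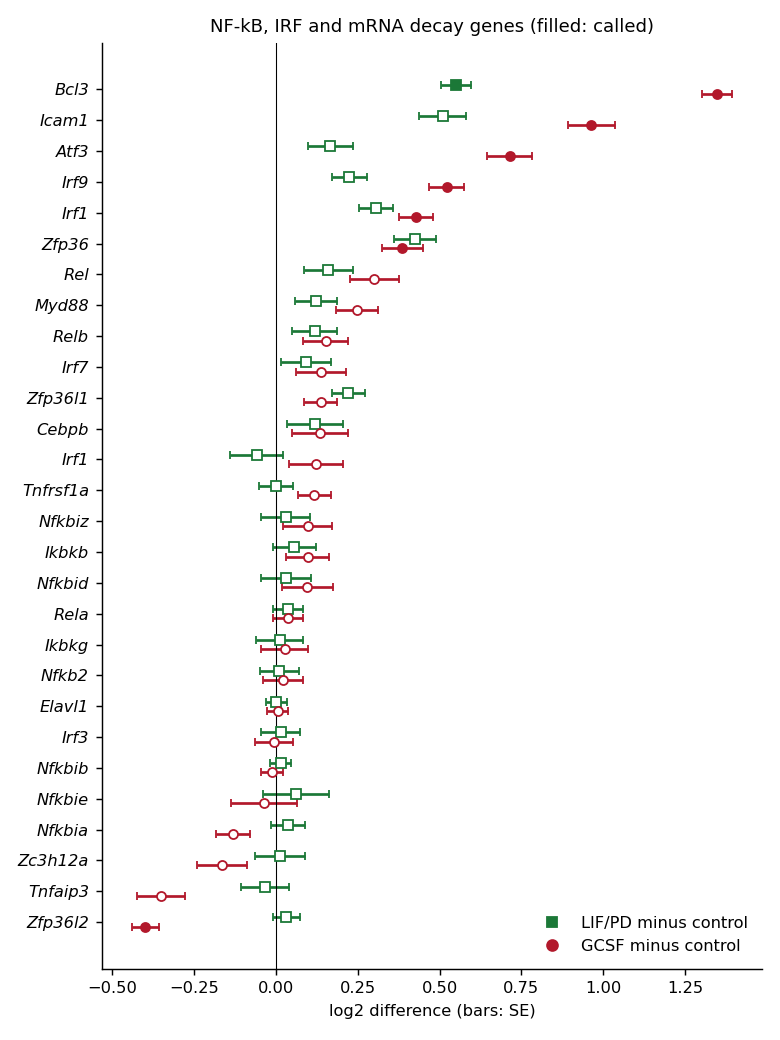
Log2 differences from control, with SE bars, for the 28 tested features of NF-kB, IRF and mRNA decay genes, ordered by the GCSF difference (filled symbols were called). Bcl3 is highest at 1.35 and Zfp36l2 lowest at -0.40 in the arrays labelled GCSF, and Rela lies near 0 in both comparisons.

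Over the 6 arrays, the tested features whose values were most like those of Ccl2, by Pearson's r among 14029 features with a single symbol, were Dennd2c (0.994), Cpt2 (0.994), Errfi1 (0.994), Zfp553 (0.993) and Grb7 (0.991). Ccl7 stood at rank 22 (0.983) and Ccl3 at rank 35 (0.978), followed at a distance by Ccl5 (0.857), Cxcl12 (0.37), Cxcl1 (-0.27) and Cxcl10 (-0.62). These coefficients describe 6 arrays, of which the 2 labelled GCSF stood apart from the other 4. Likeness in r does not mean a change of like size. Dennd2c differed by -0.06 ± 0.04 between GCSF and control, while Errfi1, an inhibitor of EGF receptor signalling, fell by 0.28 ± 0.04 and measured 10.54 and 10.44 in the LIF/PD arrays, 10.14 and 10.16 in the GCSF arrays, and 10.44 and 10.43 in the controls. Errfi1 was also called between LIF/PD and GCSF (0.34 ± 0.04), and the other 4 genes were called in none of the 3 comparisons.

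All 9 embryonic stem cell markers listed passed the filter, Pou5f1, Nanog and Sox2 among them. With limma 2 of the 9 were called higher for GCSF against control, Tdgf1 (0.30 ± 0.03) and Fgf4 (0.29 ± 0.03). Of all tested features 0.804% were. Between LIF/PD and GCSF 1 was called higher, Utf1 (0.23 ± 0.03), and 1 lower, Tdgf1 (-0.17 ± 0.03). Of all tested features 0.402% and 0.443% were. Markers of cells that commonly make chemokines were also measured. Of 10 feeder or stromal fibroblast markers 8 passed the filter, Col1a1, Col1a2, Postn and Dcn among them, and the mean log2 intensity over all 10 was 9.13 to 9.15 in the LIF/PD arrays, 9.14 to 9.17 in the GCSF arrays and 9.14 to 9.18 in the controls. Of the 8 tested fibroblast features 1, Col3a1, was called higher for GCSF against control (0.29 ± 0.05, adjusted p = 0.0410). Over all tested features 0.804% were. At an unadjusted p under 0.05 with limma, 1 was higher and 1 lower for GCSF against control (7.04% and 5.07% of all tested features). For LIF/PD against control 1 was higher (4.70%). For LIF/PD against GCSF 1 was higher and 2 were lower (6.96% and 4.83%). Of 10 markers of macrophages or other leukocytes 9 passed, and the mean over all 10 was 8.68 to 8.76 in the LIF/PD arrays, 8.59 to 8.60 in the GCSF arrays and 8.64 to 8.69 in the controls. All 9 tested leukocyte features had a negative difference between GCSF and control, from -0.20 for Tyrobp (adjusted p = 0.140) to -0.01 for Itgam, with Cd68 at -0.15 (adjusted p = 0.177), while 46.3% of all tested features had a negative difference. With limma 0 of them were called and 2 were lower at an unadjusted p under 0.05, against 5.07% of all tested features. Between LIF/PD and GCSF all 9 were positive, against 51.9% of all tested features, from 0.04 for Laptm5 to 0.24 for Tyrobp (adjusted p = 0.0777), with a median of 0.12. There, with limma, 0 were called and 4 were higher at an unadjusted p under 0.05 (6.96% of all tested features). For 7, both LIF/PD arrays lay above both GCSF arrays (22.4% of all tested features). In both comparisons these differences run the same way as those of Ccl2, Ccl3 and Ccl7 and are smaller, and their part in them was not tested. Both comparisons use the same GCSF arrays, so they are not separate results. For LIF/PD against control 8 leukocyte features were positive and 1 negative, while 57.9% of all tested features were positive. There, with limma, 0 were called and 1 was higher at an unadjusted p under 0.05 (4.70%). For 4, both LIF/PD arrays lay above both controls (24% of all tested features). No value of an array feature is 0, so none of these markers can be given as absent. In RNA of whole cultures, fewer cells of a type and less RNA per cell cannot be told apart. Of 7 primitive endoderm markers 5 passed, and of 4 endothelial markers 1, and none of these was called with limma in any comparison; at an unadjusted p under 0.05 there were 2 higher primitive endoderm features for LIF/PD against control and 1 higher for LIF/PD against GCSF, where 4.70% and 6.96% of all tested features were.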

How the data were processed

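Per the labels' protocols, biotinylated total RNA was run on single-colour arrays by a core facility. The deposited table holds log2 intensities for 34760 features; the log base was inferred from their range, and background correction, summarization and normalization are not given in the sources used here. Values were used as deposited. The 6573 features numbered below the first annotated one were treated as a control block and left out; its median was 6.58 to 6.68 in the LIF/PD, 6.71 to 6.84 in the GCSF and 6.66 to 6.71 in the control arrays. Genes were named by the platform annotation, with symbols updated by gene ID; 21640 features carried a single symbol, and 1321 with several named no gene.

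The model, with a mean for each group, took in all 6 arrays and was fitted with limma 3.58.1 in R 4.3.3, with an intensity trend in the variances (3 residual degrees of freedom), on features at or above the 40th percentile. Errors are SEs from this fit. The number of arrays, 2 per group, limits the precision. Replicates correlated at 0.997 to 0.998 over tested features, and pairs taken across groups at 0.995 to 0.998, so the ranges overlap.

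The chemokines and all lists were chosen with earlier results of these data known. Named genes were all 9 chemokines, their receptors, called members of the other lists with at most 4 more by smallest p, 4 checks of the labels, and the 5 genes most like Ccl2. Genes named outside this rule (neighbours on chromosome 11, NF-kB subunits, the end of a range) were chosen after their values were seen. Alternatives covered the replicate block, arrays in the fit, filter, normalization, variance trend, several features per gene and each array left out.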

Additional observations from a re-analysis of the deposited data

How the results depend on the processing

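The counts of called chemokine features, 3 for GCSF against control, 0 for LIF/PD against control and 3 for LIF/PD against GCSF, were the same under the 8 alternatives that kept all arrays of a comparison. With an array left out they were 2 to 3, 0 and 2 to 3. With the replicate block they were 3, 0 and 3, and the block changed no chemokine's call. For the NF-kB, IRF and mRNA decay genes the counts were 7, 1 and 4, as without it. Without an intensity trend the 7 for GCSF against control became 8, and the 4 for LIF/PD against GCSF became 3. With only the compared arrays these 2 counts were 6 and 3, and with the features of a gene averaged 6 and 5. Same-numbered arrays share only a number: their deviations from the group means correlated at 0.00712 (control and GCSF), 0.0840 (control and LIF/PD) and 0.0990 (GCSF and LIF/PD). The directions of Ccl2, Ccl3 and Ccl7 for GCSF against control held throughout, from -0.46 to -0.45, from -0.66 to -0.50 and from -0.71 to -0.68. For the NF-kB, IRF and mRNA decay genes, the count for LIF/PD against control was 0 in place of 1 without an intensity trend, and 0 to 1 with an array left out; for LIF/PD against GCSF it was 1 to 3 in place of 4 with an array left out. Over all features, calls for GCSF against control were 198, but 125 without a trend and 88 to 164 with an array left out. They were 138 with only the compared arrays and 161 with quantile normalization. For LIF/PD against control they were 11, but 1 without a trend and 1 to 7 with an array left out. With only the compared arrays, or with quantile normalization, they were 8. For LIF/PD against GCSF they were 143, but 82 with only the compared arrays, 71 without a trend and 30 to 91 with an array left out; the cause was not tested. Other chemokines and receptors gave 0 calls with limma under every alternative.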
